A study of Mus musculus with 32 samples.

Results

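The tubule injury markers were 10 genes of the kidney count table, picked by gene symbol from its 54532 genes: Havcr1, Lcn2, Spp1, Clu, Timp1, Vcam1, Cd44, Vim, Anxa2 and S100a6. Each symbol matched 1 row of the table, and the list was drawn up with earlier results of these data known. Bulk RNA-seq was carried out on kidneys of wild-type C57BL/6 mice, males and females, before cisplatin (Day 0) and 2, 3 or 5 days after it, with 4 mice in each of the 8 groups and 1 library for each of the 32 mice. The mice were 6 to 8 weeks old and the cisplatin groups had received a single intraperitoneal injection of 20 mg/kg. The study describes its Day 0 animals as healthy, whereas the labels list no treatment for the Day 0 males and cisplatin for the Day 0 females, and Day 0 was taken here as before injection in both sexes. Separate animals were sampled at each day, so no mouse was followed over time, and kidney tissue can hold tubules, glomeruli, vessels, interstitium and attached fat together. Within these values, fewer cells of one type and less RNA per cell cannot be told apart.

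Kidney tubule epithelium that is injured raises a set of genes, some of which it expresses little when healthy. Not all members are of that kind, as Spp1 and Clu were the most abundant members in the Day 0 kidneys. Cisplatin enters proximal tubule cells through organic cation transporters and damages their DNA. Havcr1 encodes kidney injury molecule KIM-1, a phosphatidylserine receptor with which injured proximal tubule cells take up dead cells, and Lcn2 encodes the iron-siderophore carrier NGAL, made by stressed tubule cells and also by neutrophils. Spp1 encodes osteopontin, a secreted ligand of integrins and of CD44, and Clu the secreted chaperone clusterin. Timp1 is an inhibitor of matrix metalloproteinases. Vcam1 is an adhesion molecule that binds leukocyte integrins and Cd44 is the receptor of hyaluronan. Vim is the intermediate filament protein vimentin, Anxa2 a calcium-dependent membrane-binding annexin and S100a6 a small calcium-binding protein.

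The libraries held 16502107 to 35961325 counts assigned to genes. The share of counts from the mitochondrial genome was 4.49 to 24.0% at Day 0 and 4.87 to 14.0% at Day 2 and Day 3, but 42.5 to 79.8% in the Day 5 males and 9.3 to 77.9% in the Day 5 females. In male Day 5 mouse 1, the female-specific transcript Xist reached 4153 counts beside 387 for the Y-linked Ddx3y, Eif2s3y, Kdm5d and Uty together. The other males held 0 to 260 Xist counts. The reads of mouse 1 thus go against a purely male label, and the members' calls that rest on the Day 5 males are given with and without it. The Day 0 females held 5 to 221 Y-linked counts, whereas females at Day 2, Day 3 and Day 5 held 0. Hepatocyte markers (6 genes, Alb and Apoa1 among them) summed to 11100 CPM (counts scaled to a common library size) in female Day 0 mouse 2 and to 57.1 to 424 CPM in the other Day 0 females, and that library is among those left out in turn below. No pair of libraries was identical. Summed proximal tubule markers reached 1680 to 91500 CPM, so the defining transcripts of the labelled tissue were present in every library.

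The members lie on 7 chromosomes. On the GRCm38 build, Havcr1 (ENSMUSG00000040405) spans chr11:46735080-46779578 on the plus strand, Lcn2 chr2:32384633-32388252 on the minus strand and Spp1 chr5:104435118-104441050 on the plus strand. Clu lies at chr14:65968483-65981547 (plus), Timp1 at chrX:20870166-20874735 (plus) and Vcam1 at chr3:116109949-116129688 (minus). Cd44 lies at chr2:102811141-102901665 (minus), Vim at chr2:13573927-13582826 (plus), Anxa2 at chr9:69453620-69491795 (plus) and S100a6 at chr3:90612882-90624181 (plus). All are protein-coding. Timp1 is nested within Syn1, a gene of the opposite strand with a median of 6 and a maximum of 69 counts per library, and Timp1 itself had a median of only 34 counts. Because it is not stated whether counting used strand, Timp1 values are uncertain.

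The bases just before the start of Cd44, S100a6 and Anxa2, which all rose in males at Day 5, are shown from RefSeq, GRCm38.p6, to set their upstream sequences side by side. They are written 5′ to 3′ on the gene's strand, with annotated exon bases left out, and capitals mark matches to the motif letters searched.

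Cd44 chr2:102901666-102901915: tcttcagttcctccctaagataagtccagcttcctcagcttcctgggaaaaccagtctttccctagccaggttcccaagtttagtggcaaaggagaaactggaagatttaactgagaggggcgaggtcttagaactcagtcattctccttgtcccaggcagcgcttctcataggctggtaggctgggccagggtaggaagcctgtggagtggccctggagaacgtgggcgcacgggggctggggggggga
S100a6 chr3:90612644-90612881: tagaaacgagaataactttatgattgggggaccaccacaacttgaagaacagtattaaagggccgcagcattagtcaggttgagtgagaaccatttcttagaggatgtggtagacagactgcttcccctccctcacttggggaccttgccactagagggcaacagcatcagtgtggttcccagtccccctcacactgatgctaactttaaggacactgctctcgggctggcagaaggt
Anxa2 chr9:69453433-69453619: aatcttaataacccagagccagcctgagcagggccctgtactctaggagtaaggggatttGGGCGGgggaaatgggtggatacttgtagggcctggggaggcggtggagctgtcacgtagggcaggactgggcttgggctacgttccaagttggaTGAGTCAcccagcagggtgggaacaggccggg

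The Anxa2 stretch held GGGCGG, the GC box letters, 190 bases before the RefSeq start and TGAGTCA, an AP-1 match, 95 bases before it, while the Cd44 and S100a6 stretches held no match to any motif searched. That RefSeq start lies inside the gene span given above, so these distances are not counted from the last base printed. The C/EBP letters are shown for Lcn2 and Havcr1, the pair of members with the largest changes from Day 0, as 30 bases around each match.

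Lcn2 chr2:32387937-32387966: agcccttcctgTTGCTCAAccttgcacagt
Havcr1 chr11:46750454-46750483: tgtttttatggTTTAGCAAttaagaagcag

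The Lcn2 match lay 216 bases before a listed start, and all 30 bases shown for Lcn2 are annotated as exon, inside the gene span given above. For Havcr1 0 of the 30 are exon, and its match, on the reverse strand, lay 46 bases before the second of 3 listed starts. RefSeq gave 11 windows of 250 bases for 8 of the 10 members, with no entry for Clu and Vcam1. Searched on both strands, the C/EBP letters TTGCNNAA occurred in 9.56% of 32851 windows and in 3 of the 11 (Havcr1, Lcn2 and Spp1). The AP-1 letters TGANTCA occurred in 6.75% and in 1 of the 11 (Anxa2), the STAT letters TTCNNNGAA in 7.02% and in 0 of the 11, and the NF-kB motif in 7.25% and in 1 of the 11 (Vim). The TATA box TATAAA occurred in 12.4% and the GC box GGGCGG in 32.7% of windows, each in 3 of the 11 member windows. These matches are descriptions of letters only.

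Levels between genes are comparable only per length, as FPKM, the deposited value scaled to gene length and library depth. Spp1 was the most abundant member in every group, with group means from 298 to 1640 FPKM, followed in 7 groups by Clu (60.5 to 134 FPKM). In the Day 5 males, S100a6 stood second at 185 ± 93.5 FPKM (SD, n = 4) against 115 FPKM for Clu. S100a6 otherwise ranged from 16.5 to 57.3, Anxa2 from 16.5 to 53.0 and Vim from 9.7 to 37.5 FPKM. Vcam1 (0.848 to 1.57 FPKM) and Cd44 (0.261 to 1.24 FPKM) were among the lowest. Havcr1 and Lcn2 changed place most, Havcr1 from 0.248 FPKM in the Day 0 females to 12.8 in the Day 3 females and Lcn2 from 1.49 to 31.7.

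**Figure D1:**
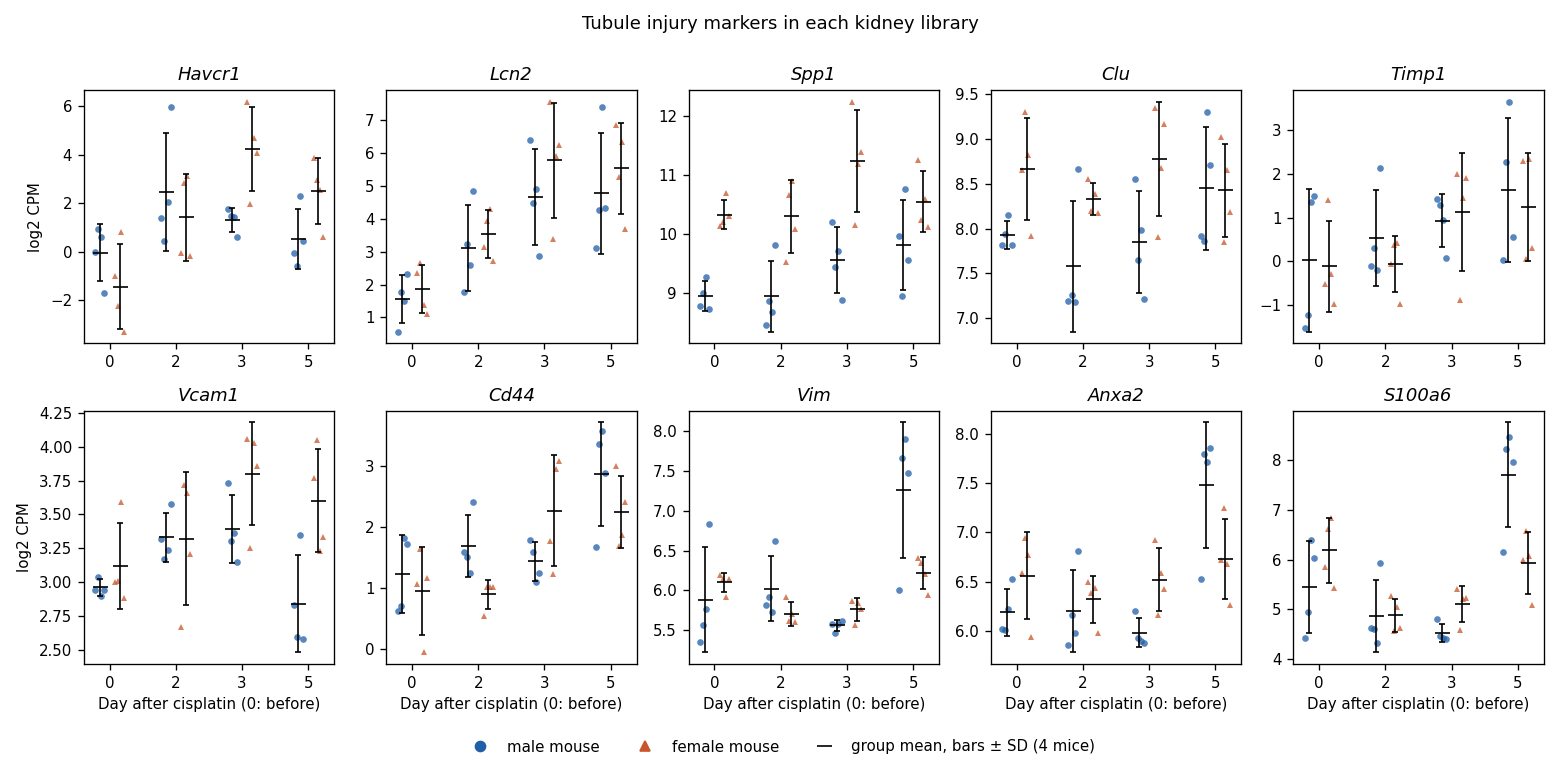
Log2 CPM of each of the 10 injury markers (y axis) in each kidney library by day after cisplatin (x axis). Points are mice, 4 for each sex and day, and the black marks give the group mean ± SD. Havcr1 spans the widest range, and S100a6, Anxa2, Vim and Cd44 stand highest in the Day 5 males.

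Changes between groups were tested with edgeR's quasi-likelihood test, fitted on all genes that passed a filter on low counts, and a gene passed where its p, adjusted over those genes by Benjamini and Hochberg, was under 0.05. All 10 members passed the filter in every comparison. SE is the standard error of a log2 fold change.

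Havcr1 and Lcn2 were the members with the largest changes from Day 0. In males, Havcr1 stood at 0.922, 1.85, 1.46 and 0.23 CPM in Day 0 mice 1 to 4. At Day 2 it stood at 2.52, 1.29, 4.02 and 63.6 CPM, at Day 3 3.34, 2.70, 2.62 and 1.44 CPM, and at Day 5 0.895, 0.594, 4.84 and 1.26 CPM. A single Day 2 male, mouse 4, stood far above every other male, and each treated group overlapped with Day 0. The change from Day 0 did not pass the test at any day in males, with log2 fold changes of 3.98 (SE 1.28, edgeR adjusted p = 0.0895) at Day 2, 1.16 (SE 0.539, edgeR adjusted p = 0.14) at Day 3 and 0.78 (SE 0.802, edgeR adjusted p = 0.511) at Day 5. Without male Day 2 mouse 4 the Day 2 value became 1.21 (SE 0.657, edgeR adjusted p = 0.274).

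In females, Havcr1 stood at 0.422, 0.137, 1.67 and 0.027 CPM at Day 0, the last of these from 1 count. It stood at 0.879, 7.02, 8.70 and 0.794 CPM at Day 2, 72.9, 3.84, 25.8 and 17.0 CPM at Day 3, and 14.6, 7.70, 5.76 and 1.46 CPM at Day 5. Every Day 3 female was above every Day 0 female, while Day 2 and Day 5 overlapped with Day 0. Havcr1 rose in females at Day 3 by 5.86 (SE 1.2, edgeR adjusted p = 0.0465, n = 4 mice per group) on the log2 scale, but not past the test at Day 2 (3.03, SE 1.15, edgeR adjusted p = 0.141) or Day 5 (3.79, SE 1.04, edgeR adjusted p = 0.176). With any 1 of 6 female libraries left out (Day 0 mouse 1, 2 or 3, or Day 3 mouse 1, 3 or 4) the Day 3 call was lost, with log2 fold changes of 4.87 to 7.28. In each of these 6 fits 0 or 1 of all genes tested passed, so the loss was not particular to Havcr1. Without Day 0 mouse 2, the library with hepatocyte markers, the Havcr1 change was 5.52 (edgeR adjusted p = 0.137).

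Lcn2 moved in both sexes. In males it stood at 1.41, 3.35, 2.77 and 4.95 CPM at Day 0, 3.31, 9.45, 5.94 and 28.9 CPM at Day 2, 85.2, 22, 30 and 7.19 CPM at Day 3, and 8.56, 19.2, 169 and 20.1 CPM at Day 5. Day 3 and Day 5 males all lay above the Day 0 males. In females it stood at 5.00, 6.21, 2.55 and 2.08 CPM at Day 0, 8.86, 15.1, 19.8 and 6.46 CPM at Day 2, 190, 10.4, 60.5 and 76.7 CPM at Day 3, and 115, 38.4, 81.2 and 13 CPM at Day 5. No treated female overlapped with the Day 0 females at any day.

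Lcn2 rose in males by 3.53 (SE 0.735, edgeR adjusted p = 0.0155) at Day 3 and 4.19 (SE 0.948, edgeR adjusted p = 0.0185) at Day 5 on the log2 scale, and in females by 4.40 (SE 0.808, edgeR adjusted p = 0.0465) at Day 3. The Day 5 female value, 3.96 (SE 0.665, edgeR adjusted p = 0.0519), was of like size but missed the threshold. At Day 2 the values were 1.94 (SE 0.66, edgeR adjusted p = 0.1) in males and 1.66 (SE 0.447, edgeR adjusted p = 0.0638) in females. Without male Day 0 mouse 1, S100a6 (lower) passed beside Lcn2 at Day 3 in males. Without male Day 3 mouse 3 the Day 3 male call of Lcn2 was lost (3.62, edgeR adjusted p = 0.0505). The Day 3 female call was lost without any 1 of the same 6 libraries as for Havcr1, where 0 or 1 of all genes tested passed. The Lcn2 value was 2.66 (edgeR adjusted p = 0.0381) at Day 3 without male Day 3 mouse 1, 2.41 (edgeR adjusted p = 0.0316) at Day 5 without male Day 5 mouse 3 and 3.62 (edgeR adjusted p = 0.168) in the Day 3 females without mouse 1 of that group. Neutrophils also make Lcn2, and the summed CPM of 10 neutrophil markers was 1.61 to 3.11 in the Day 0 males, 2.82 to 5.84 in the Day 3 males, and 11.5, 239, 101 and 43.4 in Day 5 males 1 to 4, where 3 of 4 tested markers rose. It was 2.02 to 7.99, 2.19 to 8.07 and 2.53 to 10.1 in females at Day 0, Day 3 and Day 5. Ly6g, a defining marker, was at 0 in 28 of the 32 libraries, Ngp in 18, Mmp8 in 17 and Camp in 15. The part of neutrophils in the Lcn2 values was not tested.

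Of the 10 members, Spp1 was the one whose males and females did not overlap at Day 0. It stood at 440, 514, 623 and 427 CPM in the Day 0 males against 1120, 1190, 1650 and 1260 CPM in the Day 0 females, yet this difference did not pass the test (log2 fold change of males against females -1.4, SE 0.257, edgeR adjusted p = 0.0609). At Day 2 it stood at 352, 467, 409 and 900 CPM in males and 739, 1620, 1920 and 1080 CPM in females. At Day 3 it stood at 1180, 696, 836 and 470 CPM in males and 4840, 1130, 2330 and 2670 CPM in females. At Day 5 it stood at 998, 495, 1750 and 755 CPM in males and 2430, 1200, 1550 and 1120 CPM in females. Each treated group overlapped with its Day 0 group. The largest changes from Day 0 were 1.06 in both the Day 5 males (SE 0.408, edgeR adjusted p = 0.0952) and the Day 3 females (SE 0.406, edgeR adjusted p = 0.12).

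Clu passed no test of day, with log2 fold changes against Day 0 from -0.42 to 0.70, one of 0.73 between Day 5 and Day 3 in males, and group means from 213 to 381 CPM in males and 324 to 470 CPM in females. Its Day 2 males stood at 146, 154 and 145 CPM in mice 1 to 3 and 407 CPM in mouse 4. Timp1 was low, with 0.271 to 2.76 CPM in the Day 0 males and 0.432 to 2.56 CPM in the Day 0 females, and its highest value was 12.6 CPM in male Day 5 mouse 3. Its largest changes from Day 0 were 1.78 (SE 0.972, edgeR adjusted p = 0.216) in the Day 5 males and 1.46 (SE 0.743, edgeR adjusted p = 0.368) in the Day 5 females. Between Day 3 and Day 2 in females its value was 1.48 (SE 0.547, edgeR adjusted p = 0.969), and none passed the test.

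The adhesion receptor Vcam1 had narrow ranges in males. It stood at 7.60, 8.15, 7.41 and 7.59 CPM in the Day 0 males and 9.92, 8.90, 9.40 and 11.9 CPM at Day 2, then 13.2, 9.77, 10.2 and 8.79 CPM at Day 3 and 7.05, 5.94, 10.2 and 5.90 CPM at Day 5. Males at Day 2 and Day 3 did not overlap with Day 0, but the changes were small and missed the threshold (0.39, SE 0.165, edgeR adjusted p = 0.153, and 0.45, SE 0.159, edgeR adjusted p = 0.0684). Female Vcam1 ranged from 7.28 to 12 CPM at Day 0, 6.28 to 13.1 CPM at Day 2, 9.42 to 16.6 CPM at Day 3 and 9.33 to 16.5 CPM at Day 5, with 0.68 (SE 0.247, edgeR adjusted p = 0.106) as its largest change.

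Cd44 stood at 1.47, 1.55, 3.47 and 3.22 CPM in the Day 0 males, 2.93, 2.75, 2.29 and 5.25 CPM at Day 2, 3.38, 2.93, 2.05 and 2.29 CPM at Day 3 and 3.08, 10.1, 11.8 and 7.30 CPM at Day 5. Mice 2 to 4 of the Day 5 males lay above all other males, and mouse 1 lay within the Day 0 range. Cd44 rose in males at Day 5 by 1.78 (SE 0.488, edgeR adjusted p = 0.0339) against Day 0 and by 1.66 (SE 0.394, edgeR adjusted p = 0.0125) against Day 3. In females it stood at 2.01, 3.05, 0.882 and 2.16 CPM at Day 0, 1.37, 1.94, 1.95 and 1.95 CPM at Day 2, 3.35, 2.26, 7.67 and 8.41 CPM at Day 3 and 7.89, 3.13, 3.57 and 5.23 CPM at Day 5. Day 5 females did not overlap with Day 0 females, yet the change of 1.28 (SE 0.465, edgeR adjusted p = 0.239) missed the threshold, as did 1.39 (SE 0.51, edgeR adjusted p = 0.108) at Day 3.

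The cytoskeletal and calcium-binding members shared a late pattern in males. S100a6 stood at 21.3, 30.6, 83.9 and 65.5 CPM in the Day 0 males, 24.5, 24.2, 20 and 61.4 CPM at Day 2, 27.8, 22, 21.5 and 21.2 CPM at Day 3 and 71.2, 299, 352 and 247 CPM at Day 5. All Day 5 males lay above all Day 3 males, and mouse 1 lay within the Day 0 range. It rose by 2.33 (SE 0.569, edgeR adjusted p = 0.0235) against Day 0 and by 3.49 (SE 0.439, edgeR adjusted p = 0.00219) against Day 3.

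Anxa2 stood at 64.7, 64.2, 74.4 and 92.2 CPM in the Day 0 males, 57.7, 71.3, 62.9 and 112 CPM at Day 2, 73.4, 60.9, 59.7 and 58.8 CPM at Day 3 and 92.1, 223, 211 and 232 CPM at Day 5. Again mouse 1 lay just within the Day 0 range and the other 3 above it. It rose by 1.43 (SE 0.311, edgeR adjusted p = 0.0168) against Day 0 and by 1.68 (SE 0.277, edgeR adjusted p = 0.0038) against Day 3. Vim stood at 40.7, 47.4, 54.0 and 113 CPM in the Day 0 males, 56.1, 60.5, 52.8 and 98.5 CPM at Day 2, 47.8, 43.9, 47.8 and 48.9 CPM at Day 3 and 64.5, 202, 239 and 178 CPM at Day 5. It rose by 1.49 (SE 0.447, edgeR adjusted p = 0.044) against Day 0 and by 1.95 (SE 0.344, edgeR adjusted p = 0.00456) against Day 3.

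In females these 3 members gave other values. S100a6 stood at 57.8, 98.3, 114 and 43.4 CPM at Day 0, 38.9, 23.7, 32.9 and 24.7 CPM at Day 2, 42.3, 23.9, 37.2 and 37.8 CPM at Day 3 and 63.6, 95.2, 67.4 and 33.8 CPM at Day 5. All Day 2 and Day 3 females lay below all Day 0 females, but the changes of -1.38 (SE 0.325, edgeR adjusted p = 0.0526) and -1.16 (SE 0.321, edgeR adjusted p = 0.0578) missed the threshold. Female Vim, 60.5 to 73.0 CPM at Day 0, was 48.3 to 60.3 CPM at Day 2, 47.3 to 58.3 CPM at Day 3 and 61.2 to 84.2 CPM at Day 5. Female Anxa2 overlapped with Day 0 at each day, with group means of 97.5 ± 26.4, 80.8 ± 12.3, 93.7 ± 21.0 and 109 ± 31.6 CPM (SD, n = 4) from Day 0 to Day 5.

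**Figure D2:**
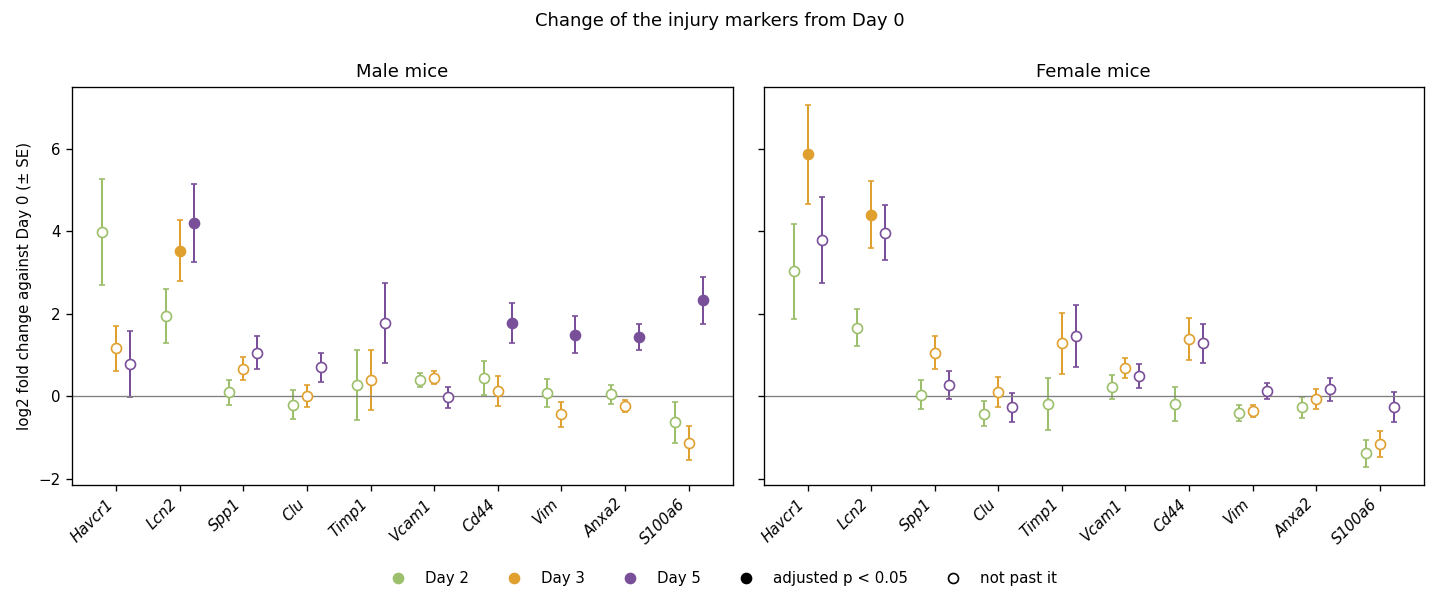
Log2 fold change of each injury marker against Day 0 of the same sex (y axis, ± SE from edgeR) for males and females, with Day 2, Day 3 and Day 5 side by side and 4 mice per group. Filled and open points set apart changes with an adjusted p under 0.05 from those without. Lcn2 passed at Day 3 in both sexes, and 5 markers passed at Day 5 in males.

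Counted over the members, 1 of 10 (Lcn2) passed the test in the Day 3 males, where 24.5% of all genes tested passed, and 2 of 10 (Havcr1 and Lcn2) in the Day 3 females, where 5.54% passed. In the Day 5 males 5 of 10 passed, all higher (Lcn2, Cd44, Vim, Anxa2 and S100a6), against 19.2% of all genes tested, or 8.98% counting higher genes only. For 3 of these 5 the change was also over 1.5 on the log2 scale (Lcn2, Cd44 and S100a6), the size the study's methods ask of a log fold change without giving its base, against 7.53% of all genes tested. The median log2 fold change of the 10 members was 1.46 in that comparison, with 9 above 0, and that of all genes tested was 0.04. The members' medians were 0.19 and 0.26 in the Day 2 and Day 3 males, and -0.18, 0.87 and 0.38 in the Day 2, Day 3 and Day 5 females, with all genes tested between 0.02 and 0.03.

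The call at Day 5 in males depended on single libraries. Without mouse 1, the library with Xist counts, the same 5 members passed and their changes were larger, at 4.56 for Lcn2, 2.07 for Cd44, 1.77 for Vim, 1.67 for Anxa2 and 2.64 for S100a6 (edgeR adjusted p from 0.00086 to 0.00803). The other 5 members again missed the threshold (edgeR adjusted p from 0.0822 to 0.984). The members' median was then 1.72, with 10 above 0, and 26% of all genes tested passed. Without male Day 5 mouse 2, 3 or 4 only Lcn2 passed, and without male Day 0 mouse 1 or mouse 2 none did (edgeR adjusted p from 0.056 to 0.12 for these 5). Of all genes tested, 5.38%, 5.9% and 6.79% passed without Day 5 mouse 2, 3 and 4. Without Day 0 mouse 1 and mouse 2, 6.77% and 6.4% passed. Against Day 3 the rise of Cd44, Vim, Anxa2 and S100a6 in males was 4 of 10 members, where 37.9% of all genes tested passed and 20.9% were higher, and leaving out any 1 library left 4 to 6 members past the test. With mouse 1 left out, the changes against Day 3 were 1.94 for Cd44, 2.20 for Vim, 1.89 for Anxa2 and 3.77 for S100a6, Timp1 (1.73) passed beside them (edgeR adjusted p from 4.62e-07 to 0.0287 for these 5), and 55.2% of all genes tested passed. With mitochondrial genes left out before normalization, Vim missed the threshold against Day 0 (1.46, SE 0.451, edgeR adjusted p = 0.0502) and the other 4 passed.

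Markers of other cell types were counted in the same Day 5 male kidneys. Of all genes tested, 19.2% passed against Day 0 (8.98% higher) and 37.9% against Day 3 (20.9% higher). Without mouse 1 these shares were 26% (11.4% higher) and 55.2% (26.9% higher). Fibroblast and smooth muscle markers, a list of 8 genes of cells that express Vim, summed to 212 to 824 CPM in the Day 0 males, 332 to 399 CPM in the Day 3 males and 371, 1160, 1620 and 946 CPM in Day 5 males 1 to 4, with 2 of 8 higher against Day 0 and 6 of 8 against Day 3. Adipocyte markers summed to 317 to 1910 CPM at Day 0, 179 to 241 CPM at Day 3 and 621, 3360, 2440 and 1730 CPM at Day 5, with 0 of 5 past the test against Day 0 and 5 of 5 higher against Day 3. Macrophage markers summed to 321 to 520 CPM at Day 0 and 142 to 418 CPM at Day 5, with 0 of 8 higher and 1 of 8 lower. At Day 3 they summed to 152 to 166 CPM, and against Day 3 0 of 8 passed at Day 5, or 6 of 8, all higher, with mouse 1 (142 CPM) left out. Proximal tubule markers summed to 22900 to 91500 CPM at Day 0 and 1680 to 10100 CPM at Day 5, with 5 of 11 lower, and the mitochondrial share stood at 42.5% in mouse 1 and 78.9 to 79.8% in mice 2 to 4. Distal tubule and collecting duct markers summed to 962 to 1440 CPM at Day 0, 794 to 907 CPM at Day 3 and 1440, 2090, 1890 and 2570 CPM in Day 5 males 1 to 4, with 2 of 8 higher against Day 0 and 5 of 8 against Day 3. Endothelial markers summed to 410 to 476 CPM at Day 0, 527 to 560 CPM at Day 3 and 389, 692, 643 and 1150 CPM at Day 5, with 2 of 7 higher against Day 0 and 3 of 7 against Day 3. Without mouse 1, the markers past the test against Day 0 became 4 of 8 for fibroblasts and smooth muscle, 1 of 5 for adipocytes, 1 higher and 1 lower of 8 for macrophages, 11 of 11 lower for proximal tubule, 4 of 5 for neutrophils, 2 of 8 for distal tubule and 3 of 7 for endothelium. Against Day 3 without mouse 1, 6 of 8 fibroblast and smooth muscle, 5 of 5 adipocyte, 5 of 8 distal tubule, 5 of 7 endothelial, 5 of 5 neutrophil, 3 of 3 lymphocyte and 5 of 5 red cell markers were higher and passed, while 1 fibroblast and smooth muscle, 1 distal tubule and 1 endothelial marker, 11 of 11 proximal tubule and 4 of 5 podocyte markers were lower. Mouse 1 was lowest for neutrophil, fibroblast, adipocyte, macrophage, distal tubule and endothelial markers, as it was lowest for 6 of the 10 members. The part of these cell types in the Day 5 values was not tested.

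Groups that did not overlap were counted beside the tests, as a description. Against Day 0 this held for 1 member in the Day 2 males (Vcam1), 2 in the Day 3 males (Lcn2 and Vcam1) and 1 in the Day 5 males (Lcn2), against 24.4%, 38.3% and 27.3% of all genes tested. In females it held for 3 members at Day 2 (Lcn2 higher, Vim and S100a6 lower), 4 at Day 3 (Havcr1 and Lcn2 higher, Vim and S100a6 lower) and 2 at Day 5 (Lcn2 and Cd44, higher), against 15.3%, 19.3% and 8.6%. Between neighbouring days it held for 1 member in males from Day 2 to Day 3 (Vim, lower, background 6.45%), 3 from Day 3 to Day 5 (Vim, Anxa2 and S100a6, background 41.5%), 1 in females from Day 2 to Day 3 (Cd44, background 2.9%) and 1 from Day 3 to Day 5 (Vim, background 7.4%). Between the sexes it held for Spp1 at Day 0 (background 6.17%), Cd44 at Day 2 (8.96%), Havcr1 at Day 3 (25.7%) and no member at Day 5 (8.85%). Leaving out male Day 5 mouse 1, the counts became 5 against Day 0 (Lcn2, Cd44, Vim, Anxa2 and S100a6, background 40.1%), 4 against Day 3 (Cd44, Vim, Anxa2 and S100a6, background 57.8%) and 3 between the sexes at Day 5 (Vim, Anxa2 and S100a6, background 28.8%).

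In 9 other comparisons between days or sexes no member passed edgeR's test. The share of all genes tested that passed was 3.16% for the Day 2 males, 1.93% for the Day 2 females and 0.258% for the Day 5 females against Day 0, and 3 members had an unadjusted p under 0.05 in each of these comparisons, where 29%, 25.3% and 15.7% of all genes did. By DESeq2 1, 2 and 2 members passed in these comparisons, where 16.3%, 11.1% and 3.94% of all genes with an adjusted p did, and by limma voom with quality weights 4, 5 and 3, where 46.4%, 50.3% and 17.6% did. Between Day 3 and Day 2 the share of genes that passed was 0% in both sexes, with 2 members at an unadjusted p under 0.05 in males (Havcr1 and Vim, lower at Day 3, where 8.69% of all genes were) and 5 in females (Havcr1, Lcn2, Spp1, Timp1 and Cd44, higher at Day 3, where 3.99% of all genes were). DESeq2 called 0 members there in males and 1 (Cd44) in females (0.319% and 0.371% of all genes), and voom 0 in both (0.00616% and 0%). Between Day 5 and Day 3 in females the share was also 0%, with 3 members at an unadjusted p under 0.05 (Havcr1, Vim and S100a6, against 11.7% of all genes) and 0 called by DESeq2 or voom (0.208% and 0% of all genes). Single libraries decided some of these counts of 0. Without female Day 0 mouse 4, Lcn2 (higher) and S100a6 (lower) passed at Day 2 and Lcn2 at Day 5 in females, Lcn2 passed at Day 5 without female Day 5 mouse 4, and Lcn2 passed between Day 3 and Day 2 without female Day 3 mouse 2. In these 4 fits 28.3%, 12.6%, 0.0901% and 0.181% of all genes tested passed, in the same order.

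Between the sexes, 4 of 10 members passed the test at Day 3, all lower in males, where 21.3% of all genes tested passed and 10.7% were lower in males. Havcr1 differed most, at 2.52 ± 0.792 CPM in males and 29.9 ± 30 CPM in females (SD, n = 4), with no overlap between the 4 males and the 4 females. The males-against-females log2 fold change of Havcr1 was -3.6 (SE 0.864, edgeR adjusted p = 0.0248). The value for Spp1 was -1.81 (SE 0.456, edgeR adjusted p = 0.0281), for S100a6 -0.64 (SE 0.17, edgeR adjusted p = 0.0285) and for Anxa2 -0.60 (SE 0.151, edgeR adjusted p = 0.0224). All 10 members had a negative value at Day 3, with a median of -0.80, and the median of all genes tested was -0.02. At Day 0 the males-against-females value was -1.4 for Spp1, -0.65 for S100a6, -0.42 for Anxa2 and 1 for Havcr1 (edgeR adjusted p from 0.0609 to 0.919). The count of members past the test at Day 3 rested on single mice. Without female Day 3 mouse 2, the lowest female for all 10 members, 9 members passed, where 34.6% of all genes tested did. Without female Day 3 mouse 3 it was 2 (13.2%), and without male Day 3 mouse 2, 3 or 4 it was 0 (11.1% or more). The Havcr1 value was -2.65 (edgeR adjusted p = 0.0356) without female Day 3 mouse 1. Proximal tubule markers summed to 17200 to 26300 CPM in the Day 3 males and 5990 to 15600 CPM in the Day 3 females, with 7 of 11 higher in males. Endothelial markers summed to 527 to 560 CPM in males and 364 to 504 CPM in females, with 5 of 7 higher in males. Lower in males were 3 of 5 thick ascending limb markers (1610 to 2360 against 1730 to 3710 CPM), 4 of 8 distal tubule and collecting duct markers (794 to 907 against 912 to 1410 CPM) and 3 of 5 adipocyte markers (179 to 241 against 334 to 596 CPM). The part of these differences in the members' values was not tested.

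At Day 0, Day 2 and Day 5 no member passed edgeR's test between the sexes, where 0.449%, 1.47% and 0.276% of all genes tested did. At an unadjusted p under 0.05 the members numbered 2, 2 and 5 (8.04%, 15% and 20.3% of all genes), DESeq2 called 1, 1 and 2 (2.17%, 4.09% and 5.6%), and voom 4, 2 and 5 (25.1%, 19.3% and 29.8%). Spp1 was the member called by DESeq2 at Day 0 and at Day 2. Without male Day 5 mouse 1, Vim (1.57, SE 0.208, edgeR adjusted p = 0.000785), S100a6 (2.31, SE 0.317, edgeR adjusted p = 9e-04) and Anxa2 (1.13, SE 0.25, edgeR adjusted p = 0.00943) were higher in males at Day 5 and passed, where 17% of all genes tested passed and 7.81% were higher. In that fit 9 of 11 proximal tubule and 3 of 5 podocyte markers were lower in males, and 5 of 6 neutrophil, 4 of 7 endothelial, 3 of 8 distal tubule, 2 of 8 fibroblast and smooth muscle and 3 of 5 adipocyte markers were higher. Their part in the values was not tested. The mitochondrial share was 78.9 to 79.8% in the males of that fit. In Day 5 females 1 to 4 it was 31.6, 77.9, 22.2 and 9.3%. Female mouse 2, at 77.9%, was the highest Day 5 female for S100a6 and Anxa2 but not for Vim. Sex and mitochondrial share thus go largely together in that fit, and their separate parts were not tested. Without male Day 2 mouse 4, Spp1 and Clu passed at Day 2 (3.35% of all genes), and without female Day 2 mouse 1 Spp1 did (2.52%).

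The difference between the sexes in the change from Day 0 was tested as an interaction, and no member passed edgeR's test at Day 2, Day 3 or Day 5, where 0%, 0.0114% and 0.243% of all genes tested did. Members at an unadjusted p under 0.05 numbered 0, 1 and 4 (4.23%, 7.11% and 15.2% of all genes). DESeq2 called 0, 0 and 1 (0.156%, 0.383% and 3.96%), and voom 0, 0 and 5 (10.6%, 12.1% and 32.6%). For Havcr1 at Day 3 the interaction was -4.72 (SE 1.29, edgeR adjusted p = 0.478), smaller in males. For Spp1, Anxa2 and S100a6 at Day 3 it was -0.41, -0.18 and 0.02 (edgeR adjusted p from 0.966 to 0.998). For S100a6 at Day 5 it was 2.58 (SE 0.707, edgeR adjusted p = 0.111), larger in males, and for Vim and Anxa2 1.34 (SE 0.495, edgeR adjusted p = 0.213) and 1.24 (SE 0.422, edgeR adjusted p = 0.178). Without male Day 5 mouse 1 these 3 passed, at 2.89 for S100a6 (edgeR adjusted p = 0.00933), 1.61 for Vim (edgeR adjusted p = 0.0199) and 1.47 for Anxa2 (edgeR adjusted p = 0.0173), where 6.74% of all genes tested passed. The Day 5 males and females of that fit differ in mitochondrial share as given above, and its part was not tested.

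Timing was read from group means of log2 CPM as a description. In males, 8 of the 10 members had their highest mean at Day 5, with Havcr1 highest at Day 2 and Vcam1 at Day 3. In females, 6 members were highest at Day 3 (Havcr1, Lcn2, Spp1, Clu, Vcam1 and Cd44), 3 at Day 5 (Timp1, Vim and Anxa2) and S100a6 at Day 0. The Day 2 change of female Havcr1 was 50.4% of its Day 3 change on the log2 scale, and that of Lcn2 was 42.3% in females and 50.3% in males, whereas female Cd44 stood at 0.95, 0.89 and 2.26 log2 CPM on Day 0, Day 2 and Day 3. Of these steps only those listed above passed a test between neighbouring days, all of them from Day 3 to Day 5 in males.

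The day of the peak moved with single mice for several members. Without male Day 2 mouse 4, Havcr1 in males peaked at Day 3. Without male Day 5 mouse 3, Lcn2 and Spp1 also peaked at Day 3, which left 6 members at Day 5. With Day 5 mouse 1 left out, 8 members peaked at Day 5. In females, the number with a peak at Day 3 ran from 4 to 7 and at Day 5 from 2 to 5 as single mice were left out.

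The spread between mice of the same sex and day was wide for these genes. The median SD of log2 CPM over the members exceeded that over all 18220 genes in all 8 groups, by the most in the Day 3 females (0.75 against 0.22), the Day 2 males (0.66 against 0.27) and the Day 5 males (0.85 against 0.47). The pairs of medians were 0.65 and 0.49 in the Day 0 males, 0.61 and 0.57 in the Day 0 females, 0.41 and 0.35 in the Day 2 females, 0.41 and 0.16 in the Day 3 males and 0.55 and 0.43 in the Day 5 females. The direction turned with single mice in 3 groups, the members being given before all genes. Among the Day 0 males the pair became 0.52 and 0.54 with mouse 1 left out, or 0.37 and 0.43 with mouse 4 left out. For the Day 0 females it became 0.46 and 0.61 with mouse 2 left out, and for the Day 2 females 0.32 and 0.35 with mouse 4 left out. In the Day 5 males with mouse 1 left out it was 0.59 and 0.36, with 6 rather than 9 members above the median of all genes. Havcr1 had the largest SD of the members in the Day 0, Day 2 and Day 3 females (1.76, 1.80 and 1.75) and in the Day 2 males (2.44), where it was above 99.9% of all genes, and without mouse 4 of that group its SD was 0.79. Lcn2 had the largest in the Day 3 males (1.46), the Day 5 males (1.84) and the Day 5 females (1.39), and Timp1 in the Day 0 males (1.63). Havcr1 at Day 0 came from 1 to 40 counts per library, so counting error adds to its spread there. In the Day 5 males Havcr1 came from 4 to 30 and Timp1 from 10 to 78 counts, where the same holds.

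**Figure D3:**
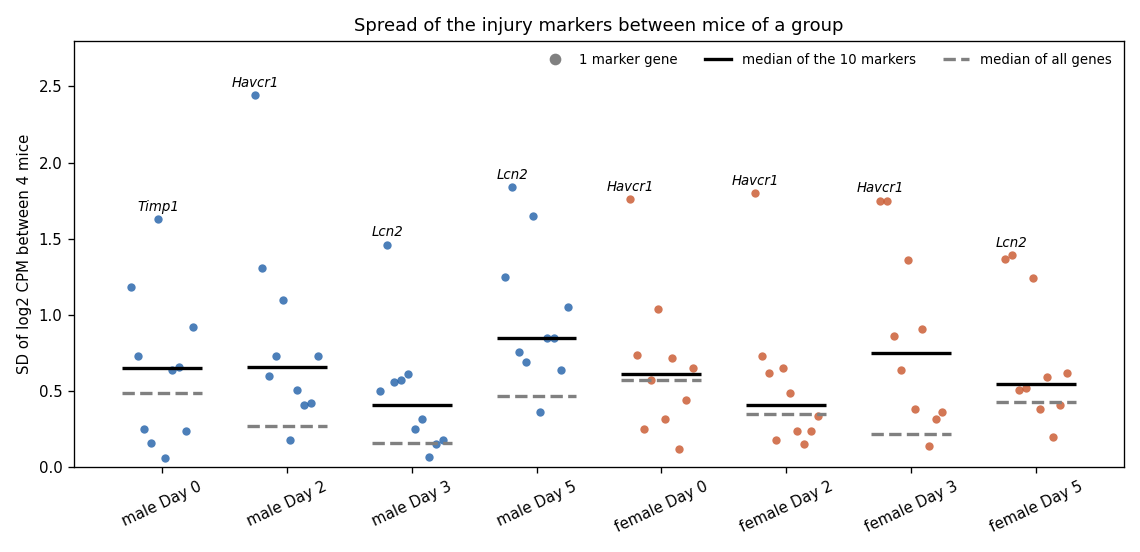
SD of log2 CPM between the 4 mice of each sex and day (y axis) for the 10 members, shown as points, with their median as a solid line and the median over all 18220 genes as a dashed line. Most members lie above the median of all genes at Day 3 and Day 5 in both sexes and at Day 2 in males.

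Single mice were high or low for nearly all members at once. Male Day 2 mouse 4 was the highest of its group for 10 of 10 members and female Day 3 mouse 2 the lowest of its group for 10 of 10. Male Day 3 mouse 1 was highest for 9 members and mouse 4 of that group lowest for 8. Male Day 5 mouse 3 and female Day 3 mouse 1 were each highest for 9. Without male Day 2 mouse 4 the median SD of the members in that group became 0.17, equal to that of all genes (0.17), with 5 rather than 9 members above it. Without female Day 3 mouse 2 the medians became 0.32 and 0.16. Beside these values, male Day 2 mouse 4 had 8.55 CPM of neutrophil markers, 952 CPM of fibroblast and smooth muscle markers and 13300 CPM of proximal tubule markers, against 1.08 to 2.46, 360 to 498 and 21800 to 25700 in the other Day 2 males. Female Day 3 mouse 2 had 15600 CPM of proximal tubule markers against 5990 to 8040 in the other Day 3 females. The part of these cell types in the mice's values was not tested.

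**Figure D4:**
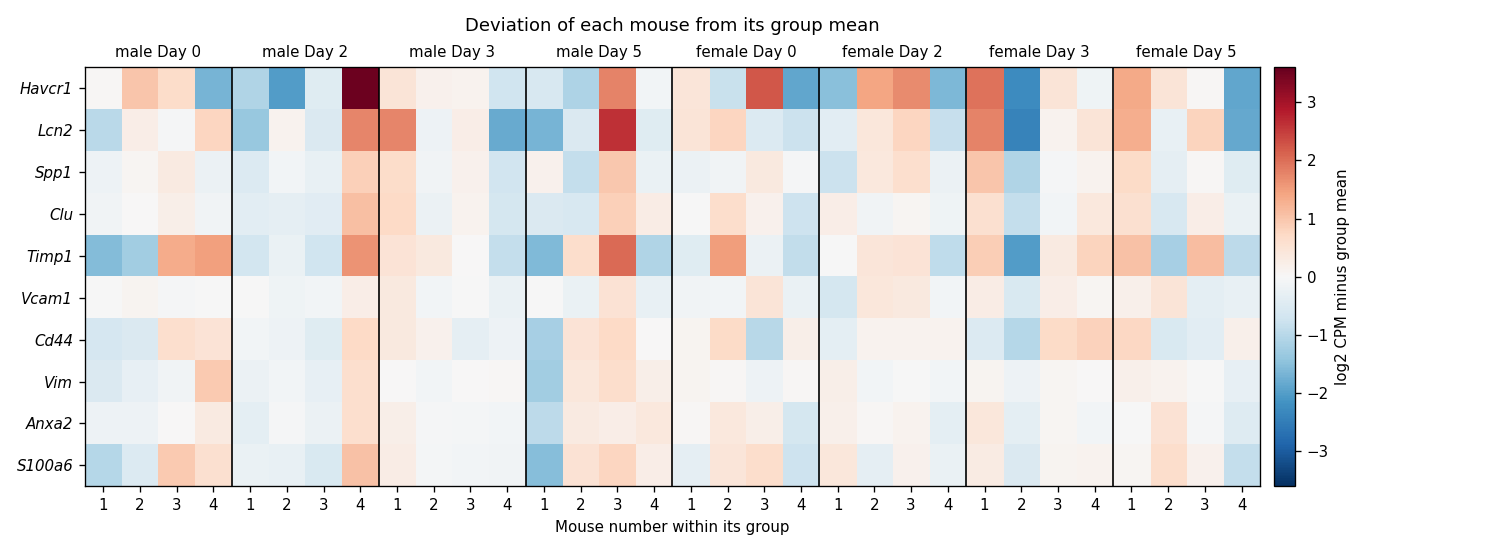
Deviation of each mouse's log2 CPM from its group mean (color, from -3.6 to 3.6) for the 10 members (rows) and the 32 mice in their 8 groups (columns). Male Day 2 mouse 4 is above its group mean for all members and female Day 3 mouse 2 below it for all members.

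Mutual correlation was computed over the 32 mice on deviations from group means, so that differences between days and sexes did not enter, with a two-sided permutation test within groups (100000 resamples) and Benjamini-Hochberg adjustment over the 45 pairs. All 45 Pearson's r were positive, with a median of 0.57 and a range of 0.12 to 0.86, and 32 pairs passed at an adjusted p under 0.05. For comparison, the median r of a member with the 18210 other genes was between -0.12 and 0.02, and 2.02 to 8.03% of those genes had an r over 0.5. Timp1 (0.64) and Lcn2 (0.63) had the highest median r with the other members and Vcam1 (0.36) the lowest.

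The highest r joined Anxa2 and S100a6 (r = 0.86, rho = 0.84, raw permutation p = 1e-05, adjusted p = 0.000112), and r was again 0.86 without the 2 mice farthest from the median of Anxa2. Vim had r = 0.76 with S100a6 (rho = 0.65, raw permutation p = 0.00155, adjusted p = 0.00396) and 0.74 with Anxa2 (rho = 0.74, raw permutation p = 0.00056, adjusted p = 0.00194). The pair of Lcn2 and Spp1 had r = 0.79 (rho = 0.71, permutation p = 9e-05, adjusted p = 0.000579). Lcn2 was close to Clu (r = 0.82, rho = 0.79, 0.78 without the 2 farthest mice, permutation p = 1e-05, adjusted p = 0.000112) and to Timp1 (r = 0.81, rho = 0.79, 0.77 without them, permutation p = 1e-05, adjusted p = 0.000112). Havcr1 was close to Spp1 (r = 0.79, rho = 0.75, 0.73 without them, permutation p = 1e-05, adjusted p = 0.000112) and to Vcam1 (r = 0.75, rho = 0.78, 0.78 without them, permutation p = 3e-05, adjusted p = 0.00027). A raw p of 1e-05 is the smallest that these permutations can give. Havcr1 and Lcn2, both of which are measured in urine as injury markers, gave r = 0.64 (rho = 0.61, 0.54 without the 2 farthest mice, permutation p = 0.00047, adjusted p = 0.00176).

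The lowest values were those of Vim and Cd44 with a few other members. Vim had r = 0.12 with Vcam1 (rho = 0.06, permutation p = 0.562, adjusted p = 0.574), 0.14 with Spp1 (rho = 0.08, permutation p = 0.576, adjusted p = 0.576) and 0.17 with Havcr1 (rho = 0.17, permutation p = 0.364, adjusted p = 0.4). Cd44 had r = 0.15 with Havcr1 (rho = 0.10, permutation p = 0.49, adjusted p = 0.513). Within males alone Cd44 had an r of 0.97 with S100a6 and 0.86 with Anxa2, and within females alone -0.16 and -0.13, a difference that was not tested. Without the Day 5 mice, most of which had high mitochondrial shares, all 45 r were again positive with a median of 0.58, and 28 pairs passed. As single mice were left out, the number of pairs that passed ran from 24, without male Day 2 mouse 4, to 35, without male Day 5 mouse 1. The count of positive r was 44 of 45 without male Day 2 mouse 4 and 43 of 45, with a lowest r of -0.02, without male Day 5 mouse 3.

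**Figure D5:**
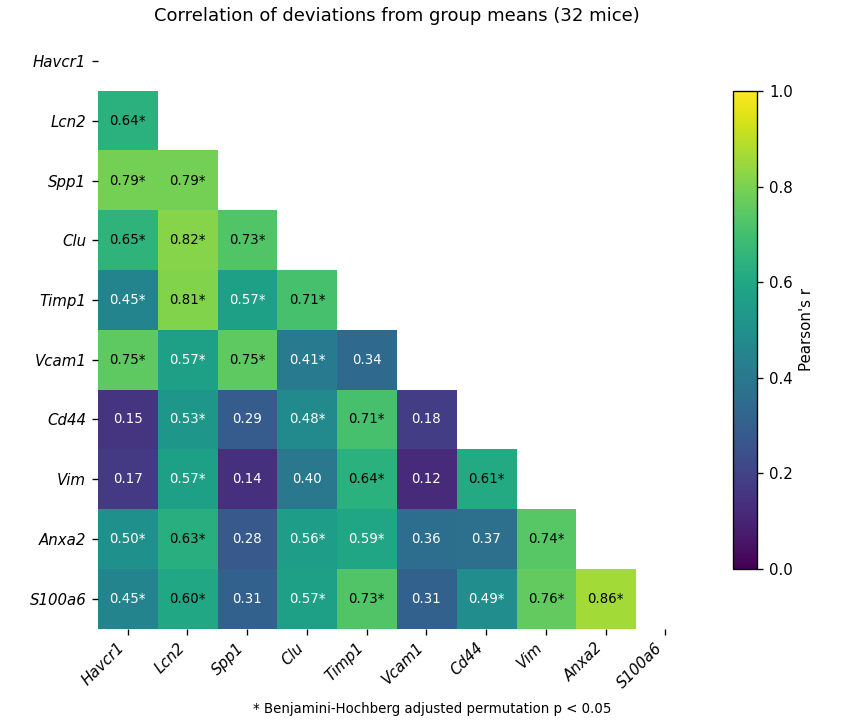
Pearson's r of deviations from group means over 32 mice for each pair of the 10 members (rows and columns, color and printed value), with an asterisk where the adjusted permutation p is under 0.05. Anxa2 and S100a6 have the highest r (0.86), and the lowest values pair Vim or Cd44 with Havcr1, Spp1 or Vcam1.

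The genes outside the list whose log2 CPM followed each member most closely over the 32 libraries, among 15035 protein-coding genes, are given as a description. For Havcr1 these were Ctps (r = 0.82), Tgfa (0.77) and Pkp2 (0.76), and for Lcn2 Clca3a1 (0.88), Cd14 (0.86) and Il1f6 (0.84). Spp1 was followed by Steap1 (0.86), Shisa4 (0.83) and Kctd1 (0.80), and Clu by Shisa4 (0.88), Sfn (0.87) and the metallothionein Mt1 (0.83). The closest genes to Timp1 were C4b (0.81), Lrg1 (0.77) and Ccl6 (0.76), to Vcam1 Acsl4 (0.79), Dkk3 (0.79) and Adamts1 (0.78), and to Cd44 Tnfrsf19 (0.88), Atp10a (0.88) and Sla (0.82). Vim was followed by Chst12 (0.93), Nbl1 (0.93) and Igfbp6 (0.92), Anxa2 by the keratin Krt18 (0.94), Hspb1 (0.94) and S100a11 (0.93), and S100a6 by Fxyd5 (0.95), Tmsb10 (0.95) and Psca (0.92). The libraries of a group share day and sex, which enter these r.

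Partners and other injury genes were counted from lists, beside 24.5% of all genes tested that passed in the Day 3 males, 5.54% in the Day 3 females, 19.2% in the Day 5 males and 0.258% in the Day 5 females against Day 0. Of 36 other injury genes, 10 rose and 4 fell at Day 3 in males and 9 rose and 2 fell in females, with medians of 0.66 and 0.62, and at Day 5 12 of 33 tested rose and 1 fell in males and 2 of 36 rose in females. Among the Day 5 males without mouse 1, 15 of 33 rose and 2 fell. Cdkn1a, the cell cycle inhibitor induced by p53, rose by 4.20 (SE 0.76, edgeR adjusted p = 0.0465) in the Day 3 females, from 13.2 ± 5.37 to 245 ± 150 CPM, and by 3.09 (SE 0.348, edgeR adjusted p = 0.00352) in the Day 3 males, from 10.1 ± 2.02 to 86.2 ± 42.5 CPM (SD, n = 4). The stress cytokine Gdf15 rose by 3.00 in females and 1.85 in males, and the chemokine Cxcl10 by 2.73 and 1.28 (edgeR adjusted p from 0.00956 to 0.0479).

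Among the plasminogen system, 4 of 5 tested genes rose at Day 3 in males and 1 of 6 in females. Plaur, the urokinase receptor, was the one past the test in both (0.71 in males, SE 0.184, edgeR adjusted p = 0.0287, and 1.47 in females, SE 0.356, edgeR adjusted p = 0.0491). Of 14 annexin and S100 genes other than the members, 0 rose and 5 fell at Day 3 in males and 1 fell in females, S100a1 falling in both (-1.40, SE 0.349, edgeR adjusted p = 0.0256 in males, and -1.52, SE 0.359, edgeR adjusted p = 0.048 in females). At Day 5 in males 5 rose and 1 fell against Day 0, and against Day 3, where 37.9% of all genes tested passed and 20.9% were higher, 11 rose and 1 fell (11 and 2 without male Day 5 mouse 1). A further list, set beside Lcn2 and Clu, held Lrp8, Trem2, Apoe, Hspb1 and Cryab. Of these the small heat shock protein Cryab fell at Day 3 in both sexes (-0.62, SE 0.181, edgeR adjusted p = 0.04 in males, and -0.79, SE 0.175, edgeR adjusted p = 0.0479 in females). At Day 5 in males 3 of 4 tested genes of that list rose, with or without mouse 1.

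Receptors and extracellular partners were counted in the same way. Of the 8 integrin genes whose proteins bind Spp1 or Vcam1, 0 passed at Day 3 in males, 1 fell in the Day 3 females and 1 rose in the Day 5 males. Of 8 tested metalloproteinase and Timp genes, 0 passed at Day 3 in either sex, and at Day 5 in males 1 rose (Timp2) and 1 fell (Cd63, a Timp1 receptor), named after their values were seen. Against Day 3, 3 integrin genes rose and 1 fell and 4 metalloproteinase and Timp genes rose and 2 fell in the Day 5 males. Once Day 5 mouse 1 was left out, 2 integrin genes rose against Day 0, and of the metalloproteinase and Timp genes 2 rose and 2 fell against Day 0 and 6 rose and 2 fell against Day 3. Of the genes of hyaluronan synthesis and turnover, Cd44's ligand, 3 of 6 tested rose and 1 fell in the Day 3 males and 0 of 6 passed in the Day 3 females. In the Day 5 males 0 of them rose and 1 of 4 fell against Day 0, and 0 rose and 2 of 5 fell against Day 3. Of the receptors and sheddases of Havcr1 and Lcn2, 1 of 4 tested rose in the Day 3 males and 0 of 5 passed in the Day 3 females, and in the Day 5 males 0 of 4 passed against Day 0 and 2 of 4 fell against Day 3.

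The cell type markers named, up to 4 of a list that passed in both sexes at Day 3, all fell. They were the proximal tubule enzyme Miox (-1.12 in males and -1.85 in females), the distal tubule genes Pvalb (-3.86 and -3.74) and Atp6v1g3 (-1.09 and -1.14), the smooth muscle actin Acta2 (-1.07 and -0.90), the antigen presentation and complement genes Cd74 (-1.71 and -2.26) and C1qa (-1.55 and -1.81), and the red cell genes Alas2 (-3.52 and -3.04), Hba-a1 (-9.72 and -5.99), Hbb-bs (-10.23 and -5.72) and Hbb-bt (from 38.4 ± 32.1 to 0.0313 ± 0.0626 CPM in males, SD, n = 4, and -5.43 in females). These are single genes of their lists. At Day 3 in males, 2 proximal tubule markers rose and 1 fell of 11, 2 fibroblast and smooth muscle markers rose and 1 fell of 8, 5 of 8 macrophage and 2 of 8 distal tubule markers fell and 0 rose, and 2 of 5 podocyte markers rose and 0 fell. In females, 1 of 11, 1 of 8, 2 of 8 and 3 of 8 of the first 4 lists fell, 0 rose, and 0 of 5 podocyte markers passed. All 5 red cell markers fell in both sexes. The edgeR adjusted p of the named markers ran from 0.00162 to 0.0495. Hbb-bs and Hbb-bt are near-identical copies between which reads can be split, so their single values are uncertain.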

How the data were processed

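Kidney RNA-seq counts per gene, which the authors deposited for 32 mice as whole numbers beside FPKM (a length- and depth-scaled value) from the same table, were used as given. Reads were aligned to GRCm38 per the study's methods, whereas the submitters' processing notes list GRCm39 and mm39 with HTSeq and DESeq2. The coordinates deposited for the 10 members match GRCm38. The aligner, annotation release and strandedness are not given in the sources used here. FPKM served only to compare levels between genes.

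Each of 17 contrasts was fitted with edgeR 4.0.16 (R 4.3.3) on the counts of the groups compared: TMM normalization, filterByExpr, robust quasi-likelihood F test and Benjamini-Hochberg adjustment over all genes tested, threshold 0.05. "Rose" and "fell" refer to that threshold. Alternatives used DESeq2 1.42.0, limma 3.58.1 and other settings. Log2 CPM used TMM over 32 libraries and a prior count of 2, for 18220 genes. CPM was otherwise computed without a prior count. Correlations used numpy 2.4.6 and scipy 1.17.1. The scripts were tested on simulated data.

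The members and lists were chosen with earlier results of these data known. Genes named from a list passed at Day 3 in both sexes in 1 direction (up to 4 a list), and 3 genes by r were named per member. Some results under this rule are not reported here. Replicates are different mice, whose numbers do not pair them across groups. Depth was 16502107 to 35961325 counts per library, mitochondrial genes included. These made up 78.9 to 79.8% in Day 5 males 2 to 4 and 77.9% in female Day 5 mouse 2, which leaves fewer counts for other genes. No per-sample column was left unused.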

Additional observations from a re-analysis of the deposited data

Results flagged for a closer look

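In 5 of 80 groups of 4 mice (10 members, 8 groups), 1 mouse lay far outside the other 3 by Dixon's test at the 95% level, where chance alone flags about 1 in 20 groups. Clu stood at 8.67 log2 CPM in male Day 2 mouse 4 and at 7.18 to 7.26 in the other Day 2 males. Cd44 stood at 0.53 log2 CPM in female Day 2 mouse 1 and at 1.01 to 1.02 in the others. Anxa2 stood at 6.20 log2 CPM in male Day 3 mouse 1 and at 5.88 to 5.93 in the others, and at 6.53 in male Day 5 mouse 1, the library with Xist counts, against 7.72 to 7.86. S100a6 stood at 4.8 log2 CPM in male Day 3 mouse 1 and at 4.41 to 4.46 in the others.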

How the results depend on the processing

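Counts of members past the test moved with the tool. Under DESeq2's Wald test they were, against Day 0, 1, 3 and 6 in males and 2, 5 and 2 in females at the 3 times. Of all genes with an adjusted p, 16.3%, 27.4% and 21.8% passed in males and 11.1%, 17.5% and 3.94% in females. Between Day 3 and Day 2 in females 1 member passed. Between the sexes 1, 1, 5 and 2 passed at the 4 times, and 1 for the sex difference in response at Day 5. The shares of all genes beside these are given above, except for the sexes at Day 3. Under limma voom with quality weights, the counts were 4, 5 and 6 for the males and 5, 5 and 3 for the females at the 3 times. Of all genes, 46.4%, 57.2% and 54.9% passed in males and 50.3%, 47.9% and 17.6% in females. Between the sexes they were 4, 2, 9 and 5 at the 4 times (25.1%, 19.3%, 43% and 29.8% of all genes). For the response at Day 5 the count was 5 (32.6%). With 1 fit over all 8 groups, the counts were 1 for the Day 2 males, 1, 4 and 2 for the females, 1 and 4 between the sexes at Day 3 and Day 5 and 3 for the response at Day 5. With no filter on low counts they were 3 for the Day 5 males, 2 and 1 for the Day 2 and Day 3 females and 1, 1, 2 and 1 between the sexes at the 4 times. With at least 10 counts in every library they were 2 and 1 for the Day 2 and Day 5 females, and with DESeq2 size factors 1 for the Day 5 females. With 1 fit 12.9% of all genes passed for the Day 2 males, and with no filter 7.84% for the Day 5 males. Other counts for 1 fit, the filters and DESeq2 size factors are given without their share, so they are no result about the members. The cause was not tested. With mitochondrial genes left out before normalization, 4 rather than 5 members passed at Day 5 in males.

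Replicate numbers gave no pairing, with correlations of same-numbered mice over 0.1 in 0 to 3 of 4 pairs. With the replicate block, the counts became 0 for the Day 3 males, where 0.566% of all genes passed, and 0 and 1 for the Day 3 and Day 5 females. Between the sexes they became 1 at Day 0 and 3 at Day 3.

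With single mice left out, counts ran from 0 to 2 (Day 3 males), 0 to 5 (Day 5 males), 0 to 2, 0 to 3 and 0 to 1 (Day 2, Day 3 and Day 5 females), 0 to 1 (Day 3 against Day 2 in females), 0 to 2, 0 to 9 and 0 to 3 (between the sexes at Day 2, Day 3 and Day 5) and 0 to 3 (response at Day 5). The share of all genes past the test moved in these fits too, so the ranges are no result about the members. Members with their highest mean numbered 0 to 2 at Day 2, 0 to 3 at Day 3 and 6 to 8 at Day 5 in males, 0 to 3 at Day 0, 4 to 7 at Day 3 and 2 to 5 at Day 5 in females. Members above the median SD in the Day 2 males numbered 5 to 9. Leaving out mice for peak days and spread, and male Day 5 mouse 1 for lists and overlap, was chosen after seeing the data. The 16 calls of members and 32 of pairs that passed the reported tests were recomputed under the alternatives, where 1268 values passed again, 139 did not and 0 changed direction. Calls gained under an alternative are not among these values, and the counts above do not list every setting.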
